A study of Neogale vison with 6 samples.

Results

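The genes described here handle cellular iron or control ferroptosis, the form of cell death that follows iron-dependent peroxidation of membrane lipids. The list held 10 genes (TFRC, FTH1, FTL, IREB2, ACO1, NCOA4, GPX4, AIFM2, ACSL4 and LPCAT1), which were looked up by gene symbol among the 24526 genes of the count table. Of the 10 symbols, 6 were found (TFRC, IREB2, NCOA4, AIFM2, ACSL4 and LPCAT1), and all 6 had enough counts to be tested. No row carried the symbol GPX4, FTH1, FTL or ACO1. For ACO1, a row with the symbol ACOC and the description aconitase 1 was read as this gene (ENSNVIG00000000721). It is given beside the 6 genes and is not counted with them. GPX4 and the ferritin subunits FTH1 and FTL could not be matched and were not analysed here, so the data below bear on the iron receptor, the iron sensors, ferritin turnover and the lipid enzymes, but not on GPX4 or ferritin themselves.

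Cells take up iron mainly as transferrin bound to the transferrin receptor TFRC, and store it in ferritin, a shell of FTH1 and FTL subunits. The iron regulatory proteins, ACO1 and IREB2, bind hairpins in the mRNAs of these genes when iron is scarce, which protects the TFRC mRNA from decay and blocks the translation of ferritin. NCOA4 carries ferritin to lysosomes for breakdown, which frees the iron. Free iron drives the peroxidation of polyunsaturated phospholipids, which ACSL4 helps to make. The selenoprotein GPX4 reduces the lipid peroxides, and AIFM2 (also called FSP1) regenerates coenzyme Q as a radical trap. Both defences draw on the mevalonate pathway. An isoprenoid made from mevalonate modifies the tRNA that inserts selenocysteine, and another forms the tail of coenzyme Q. Statins inhibit HMG-CoA reductase, the enzyme that makes mevalonate, which is why these genes were examined.

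The series compared Mv1Lu cells, a mink lung epithelial line, that were left untreated (control, 3 libraries) with cells subjected to cholesterol depletion (CD, 3 libraries). In CD, the medium held 10% lipoprotein-deficient serum (LPDS) and, at 50 μM each, lovastatin and mevalonate for 16 h, so that statin, added mevalonate and serum changed together and cannot be told apart. According to the authors, this mevalonate dose lowers cholesterol synthesis yet suffices for protein prenylation (farnesylation and geranylgeranylation). The supply of isoprenoids for the selenocysteine tRNA or for coenzyme Q was not measured. All libraries came from this single cell line, and nothing in the labels says that the replicates were separate cultures, so that the p-values measure only the spread between these libraries. The serum and medium of the untreated cells are not described in the labels. Values are CPM, counts divided by the TMM-scaled library size and given per 1000000 reads. They are not divided by gene length, so levels are compared between libraries and never between genes.

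The libraries held between 13473820 and 18633764 reads on genes. The CD libraries varied more among themselves than the control libraries, with a biological coefficient of variation of 0.213 against 0.0852. CD replicate 3 had the largest share of unmapped reads in its group, 9.37% against 3.54% and 4.33%, while the control libraries ranged from 4.25% to 18.4%. The epithelial markers KRT7 and KRT19 were abundant, whereas EPCAM, CLDN7 and CDH1 had at most 18 counts over the 3 libraries of a group. The summed CPM of the 7 epithelial markers found was 7931 to 8580 in control and 1677 to 2074 in CD, most of it KRT7 (means of 7126 and 1256 CPM). KRT19 also fell, OCLN and TJP1 were not called (log2 fold changes 0.063 and -0.31), and CDH1 had 8 counts in control and 18 in CD. The sums were 310 to 387 and 183 to 232 for 7 fibroblast markers, 206 to 221 and 75.9 to 124 for 5 endothelial markers (nearly all from TEK), and 5.57 to 6.67 and 21.1 to 26.0 for 5 immune markers. Unlike the fibroblast and endothelial sums, LUM (7 counts in control and 35 in CD) and DCN (3 and 15) of the fibroblast list and VWF (5 and 56) and PECAM1 (0 and 11) of the endothelial list had more counts in CD. PTPRC, the marker of all leukocytes, had 0 counts in control and 1 in CD, and AIF1 had 0 counts in every library, while CD68 (251 counts in control and 913 in CD) and CSF1R (37 and 168), which are macrophage markers, were called higher (log2 fold changes 1.85 and 2.16). The part of these marker differences in the results below was not tested.

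Among the 6 genes found by symbol, ACSL4 and LPCAT1 rose in CD, TFRC fell, and IREB2, NCOA4 and AIFM2 did not pass the test (FDR under 0.05, Benjamini-Hochberg over all 12148 genes tested, quasi-likelihood test of edgeR). Thus 3 of 6 genes (50%) were called. Over all genes tested, 47.7% were called, 24.8% as higher and 22.9% as lower, so the share of called genes was near that of the whole transcriptome. The median log2 fold change of the 6 genes was 0.055, beside 0.057 for all genes tested, and the median of its size was 0.41 beside 0.47. The groups did not overlap for 3 of the 6 genes, beside 58% of all genes tested. For 2 genes all CD libraries were higher, beside 29.5% of all genes, and for 1 gene all were lower, beside 28.6%. With 1 library left out in turn, 1 to 3 genes were called higher and 0 to 2 lower. For a single gene, the smallest two-sided p of an exact permutation test over these libraries is 0.1.

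**Figure D1:**
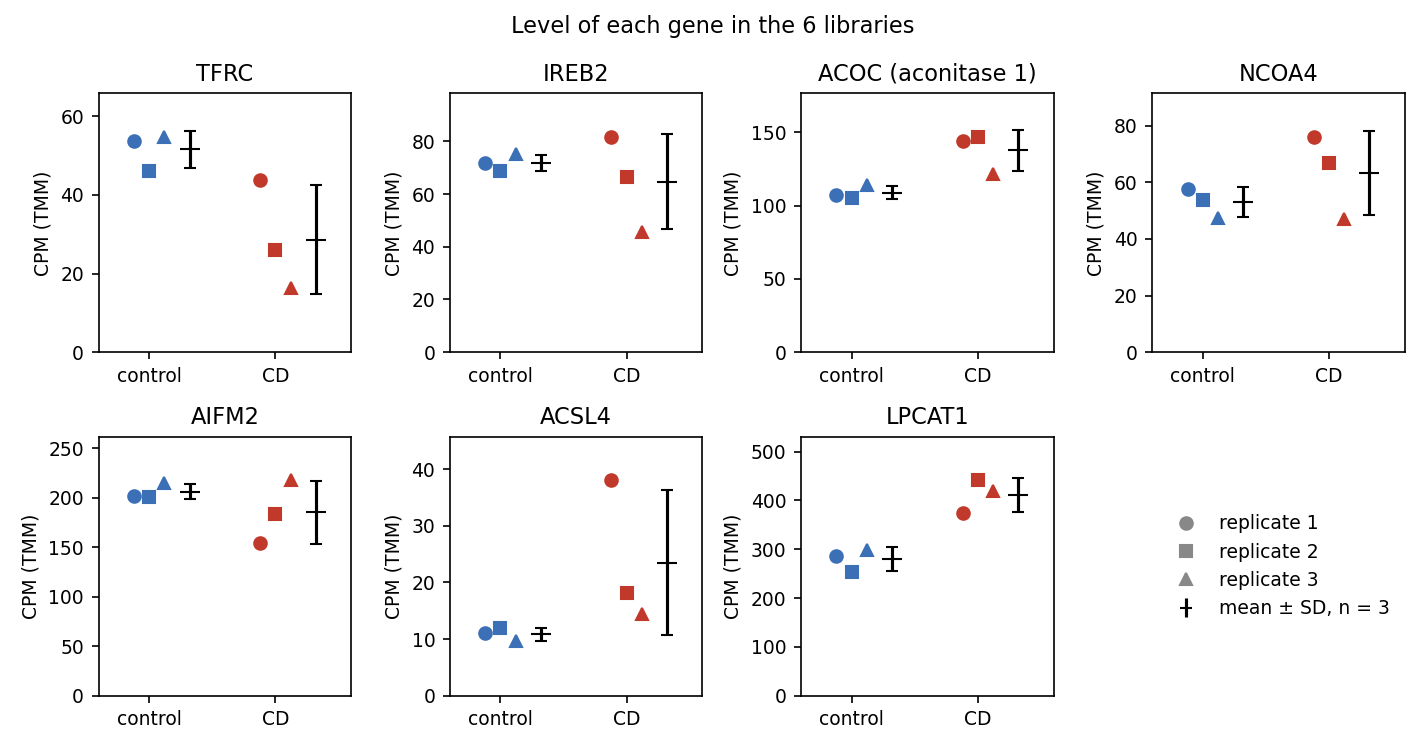
CPM after TMM normalization (y axes, from 0) of the 6 genes found by symbol and of ACOC in the 3 control (blue) and 3 CD (red) libraries, with the symbol shape giving the replicate and the black bar the mean ± SD (n = 3). TFRC lies lower and ACSL4, LPCAT1 and ACOC lie higher in every CD library than in every control library, and the CD libraries of TFRC and ACSL4 are spread widely.

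TFRC, the receptor that brings transferrin-bound iron into the cell, fell in CD. Its level in control replicates 1, 2 and 3 (ENSNVIG00000011746) was 53.7, 46.2 and 54.8 CPM. It was lower in CD replicates 1, 2 and 3, at 43.8, 25.9 and 16.3 CPM. Every CD library was below every control library, although CD replicate 1 came within a few CPM of control replicate 2. The mean was 51.6 ± 4.69 CPM in control and 28.6 ± 13.9 CPM in CD (SD, n = 3 each), and the log2 fold change was -0.85 ± 0.29 (SE, FDR 0.0338, edgeR). The highest CD library was 2.69 times the lowest, a spread wider than that of 95.1% of all genes tested, while the control libraries differed by at most 1.19 times. The call for TFRC was sensitive to the settings. It was lost in 6 of 16 alternative settings, among them the omission of control replicate 1, 2 or 3 or of CD replicate 2 (FDR 0.0817, 0.0634, 0.107 and 0.0842, edgeR). Without CD replicate 1 the log2 fold change was -1.28 (FDR 5.80e-04, edgeR), and without CD replicate 3 it was -0.61 (FDR 0.00523, edgeR).

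The iron regulatory proteins set the stability of the TFRC mRNA. IREB2 (iron regulatory protein 2, ENSNVIG00000009909) was at 71.6, 68.7 and 75 CPM in control replicates 1, 2 and 3. It was at 81.8, 66.6 and 45.7 CPM in CD replicates 1, 2 and 3. The CD libraries lay on both sides of the control libraries, and no difference was called (log2 fold change -0.15 ± 0.19 SE, FDR 0.54, edgeR). Its interval of 1.96 standard errors on each side runs from -0.52 to 0.22, so a fall by 0.52 on the log2 scale is within it. Without CD replicate 3 the log2 fold change of IREB2 was 0.0099 (FDR 0.95, edgeR).

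Aconitase 1, read here from the ACOC row, is an aconitase while it holds an iron-sulfur cluster and an RNA-binding regulatory protein without it. Its level was 107, 105 and 114 CPM in control replicates 1, 2 and 3. In CD replicates 1, 2 and 3 it was 144, 147 and 122 CPM, each above all control libraries. On the log2 scale it was higher by 0.34 ± 0.11 (SE, FDR 0.0339, edgeR). This call was lost in 7 of 16 alternative settings, DESeq2 included (FDR 0.0554), as well as without control replicate 1, 2 or 3 or CD replicate 2 (FDR 0.13, 0.12, 0.0758 and 0.15, edgeR).

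The balance between the mRNAs of the iron regulatory proteins was followed as the ratio of their counts within each library, which does not depend on the scaling between libraries. Protein levels and RNA-binding activity were not measured, so this ratio does not give the balance of the proteins. The ratio of ACOC to IREB2 counts was 1.5, 1.53 and 1.52 in control replicates 1, 2 and 3. It was 1.76, 2.21 and 2.66 in CD replicates 1, 2 and 3. The control ratios were close to each other and all 3 CD ratios were higher. The mean log2 ratio was 0.60 ± 0.017 in control and 1.12 ± 0.30 in CD (SD, n = 3 each), a difference of 0.52 (two-sided exact permutation test, p = 0.1, which is the smallest possible, and 0.2 adjusted over the 2 ratios that could be computed). The other 4 ratios intended here involve GPX4, FTH1 or FTL.

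NCOA4, the receptor for ferritin in autophagy, was at 57.7, 53.8 and 47.3 CPM in control replicates 1, 2 and 3 (ENSNVIG00000004980). The values for CD replicates 1, 2 and 3 were 76.1, 66.7 and 47.0 CPM. The first and second CD libraries were above all control libraries, and CD replicate 3 was just below the lowest of them. The difference was not called (log2 fold change 0.26 ± 0.18 SE, FDR 0.25, edgeR), with an interval of 1.96 standard errors from -0.086 to 0.60. Without CD replicate 3, NCOA4 was called higher (log2 fold change 0.40, FDR 0.00321, edgeR), whereas omitting CD replicate 1 gave a log2 fold change of 0.11 (FDR 0.59, edgeR).

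AIFM2, the oxidoreductase that keeps coenzyme Q reduced at the plasma membrane, was at 202, 201 and 215 CPM in control replicates 1, 2 and 3 (ENSNVIG00000011030). CD replicates 1, 2 and 3 had 154, 184 and 218 CPM. The groups overlapped, since CD replicate 3 held the highest value of all libraries while the other CD libraries were below every control library. No difference was called (log2 fold change -0.15 ± 0.13 SE, FDR 0.38, edgeR), and the interval of 1.96 standard errors runs from -0.42 to 0.11. Without CD replicate 3, AIFM2 was called lower (log2 fold change -0.32, FDR 0.0118, edgeR), whereas omitting CD replicate 1 gave a log2 fold change of -0.025 (FDR 0.87, edgeR).

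ACSL4, the acyl-CoA synthetase that activates arachidonic and other polyunsaturated fatty acids for phospholipids, had the highest fold change of the list. Its level was 11.0, 11.9 and 9.64 CPM in control replicates 1, 2 and 3 (ENSNVIG00000020168). It reached 38.0, 18.0 and 14.4 CPM in CD replicates 1, 2 and 3. All CD libraries were above all control libraries, but CD replicate 1 was far above the others. The mean was 10.9 ± 1.15 CPM in control and 23.5 ± 12.7 CPM in CD (SD, n = 3 each), or 2.17-fold higher (log2 fold change 1.12 ± 0.32 SE, FDR 0.0166, edgeR). The size of the increase rested on CD replicate 1. Without it the log2 fold change was 0.59 (FDR 0.0242, edgeR), and ACSL4 was not called without control replicate 3 (FDR 0.0754, edgeR).

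LPCAT1, which attaches fatty acids to lysophosphatidylcholine and makes the saturated phosphatidylcholine of lung surfactant, also rose. It was at 287, 253 and 299 CPM in control replicates 1, 2 and 3 (ENSNVIG00000024375). In CD replicates 1, 2 and 3 it was at 374, 442 and 419 CPM. The lowest CD library was above the highest control library, and the CD libraries differed by at most 1.18 times. The CD mean of 411 ± 34.5 CPM was 1.47-fold the control mean of 280 ± 23.9 CPM (SD, n = 3 each, log2 fold change 0.56 ± 0.12 SE, FDR 0.00351, edgeR). LPCAT1 was the only gene of the list called in each of the 16 alternative settings, with a log2 fold change between 0.47 and 0.63.

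Whether ACSL4 rose more than LPCAT1 was tested with the ratio of their counts. This ratio was 0.0385, 0.0471 and 0.0322 in control replicates 1, 2 and 3. In CD replicates 1, 2 and 3 it was 0.102, 0.0409 and 0.0344. CD replicate 1 stood above all other libraries, and the remaining CD libraries lay within the control range. The log2 ratio differed by 0.43 between the groups (exact permutation test, two-sided p = 0.6, adjusted p = 0.6), and without CD replicate 1 the difference was -0.050. No difference between the increases of the lipid enzymes was therefore shown.

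**Figure D2:**
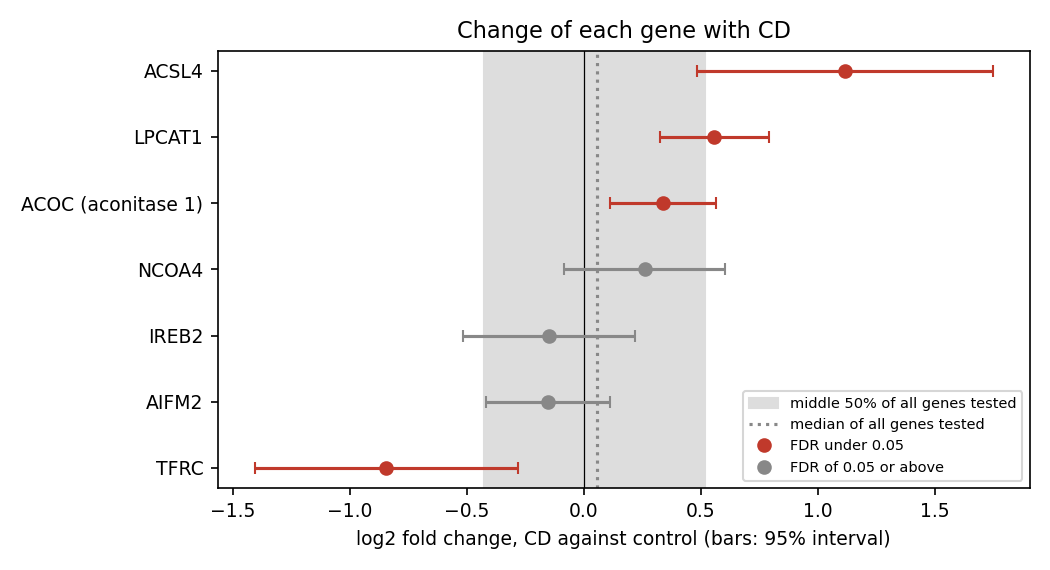
Log2 fold change of CD against control (x axis) for each gene, with bars of 1.96 standard errors on each side, in red where the FDR was under 0.05 and in grey otherwise. The grey band holds the middle 50% of all genes tested, from -0.43 to 0.52. ACSL4, LPCAT1 and TFRC lie outside the band and the other genes within it.

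The order of the CD libraries was shared by several of these genes. TFRC, IREB2, NCOA4 and ACSL4 were all highest in CD replicate 1 and lowest in CD replicate 3, with CD replicate 2 between them. This order was found for 27.4% of all genes tested. The level in CD replicate 1 was 2.69 times that in CD replicate 3 for TFRC, 2.64 times for ACSL4, 1.79 times for IREB2 and 1.62 times for NCOA4. A ratio of at least 1.5 was found for 20.3% of all genes tested. AIFM2 had the opposite order, with a ratio of 0.71, while ACOC and LPCAT1 differed little between these libraries, with ratios of 1.18 and 0.89. In the control libraries, the highest value was at most 1.24 times the lowest for each of the 7 genes. The part of the unmapped reads, which were most frequent in CD replicate 3 among the CD libraries, was not tested.

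**Figure D3:**
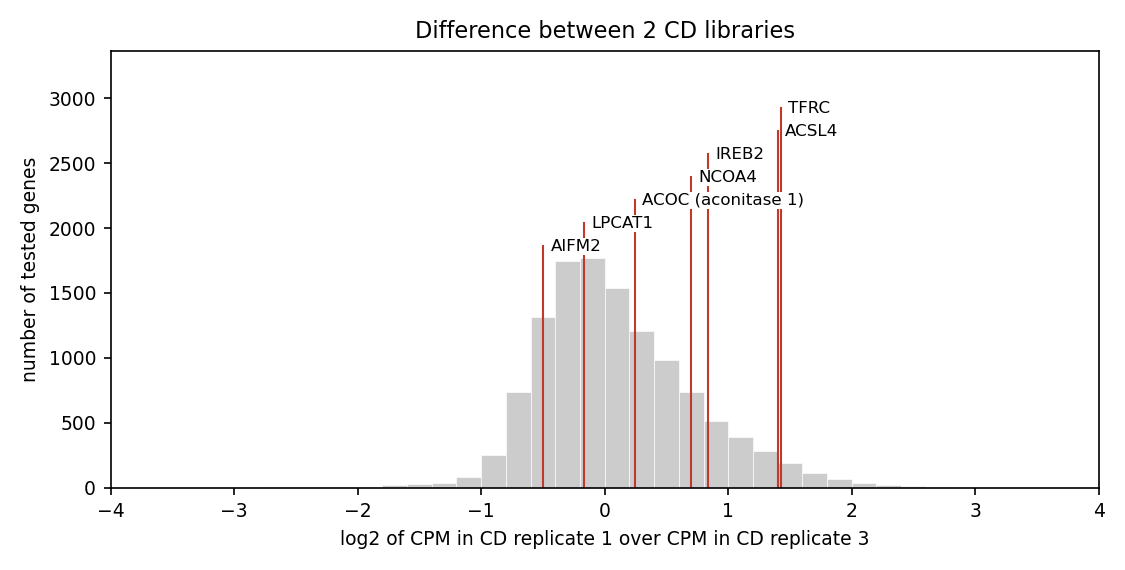
Number of tested genes (y axis) by the log2 ratio of their CPM in CD replicate 1 to that in CD replicate 3 (x axis), with red lines at the genes described here. TFRC and ACSL4 stand in the right tail, above 96.4% and 96.2% of all genes tested, and AIFM2 stands left of the centre.

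For each called gene, the gene with the most similar course over the 6 libraries was taken from all tested genes with a symbol, by the smallest root mean square difference of centred log2 CPM. It was ADGRG6 for TFRC (difference 0.068), SHOC2 for ACSL4 (0.12), GRAMD1A for LPCAT1 (0.028) and TTC17 for ACOC (0.032). ADGRG6 had a log2 fold change of -0.86, SHOC2 of 1.06 and GRAMD1A of 0.55, each called in edgeR (FDR 0.0327, 0.0160 and 0.00439). TTC17 was not called (log2 fold change 0.33, FDR 0.0605, edgeR). Since these genes were picked for a course like that of the called gene, their similar fold changes follow from the choice.

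The other genes of these pathways were followed in 8 lists with 112 genes. Of these, 97 were found, 8 of them by their description only, and 84 were tested. In CD, 25 were higher, 22 were lower and 37 were not called at an FDR under 0.05 in edgeR. This is 56% of the genes tested, beside 47.7% of all genes, and the median log2 fold change was -0.093 beside 0.057. Without CD replicate 3, 26 were higher and 34 lower, beside 29.3% and 29.2% of all genes tested in that fit. Of the called genes, 14 higher and 16 lower genes were also called in each alternative setting in which they were tested. Within single lists of 6 to 19 tested genes, 42.1% to 68.8% were called, beside 47.7% of all genes.

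Among the 9 tested genes of iron uptake and release, 2 rose, 3 fell and 4 were not called (median log2 fold change -0.25). The genes that fell were STEAP3, the reductase that works with TFRC in endosomes (log2 fold change -0.94 ± 0.19 SE, FDR 0.00223, edgeR), and the metal importers SLC39A8 (-0.87) and SLC11A2 (-0.55, not called without control replicate 3, FDR 0.13, edgeR). SLC40A1, the iron exporter ferroportin, rose, with a mean of 28.4 ± 1.68 CPM in control against 38.5 ± 2.17 CPM in CD and a log2 difference of 0.44 ± 0.13 (SE, FDR 0.0160, edgeR), and was called in 12 of 16 alternative settings. TFR2, the second transferrin receptor, rose from a low level of 1.84 ± 0.50 CPM to 3.45 ± 0.259 CPM (log2 fold change 0.89, FDR 0.0140, edgeR), called in 12 of 15 alternative settings. HAMP, the hormone hepcidin, and CP, the ferroxidase ceruloplasmin, had 0 counts in all 6 libraries, which allows up to 0.0324 CPM over the libraries together for counting error.

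In the list of iron sensing, iron chaperones and ferritin turnover, 2 of 6 genes rose, 1 fell and 3 were not called (median log2 fold change 0.30). FBXL5, the iron-sensing ubiquitin ligase subunit that removes IREB2, was not called (log2 fold change 0.29 ± 0.20 SE, FDR 0.25, edgeR), nor was HERC2, the ligase for NCOA4 (log2 fold change 0.31, FDR 0.24, edgeR). Without CD replicate 3, HERC2 was called higher (log2 fold change 0.49, FDR 3.63e-04, edgeR), and its lowest log2 fold change with 1 library left out was 0.059. SKP1 and CUL1, shared subunits of the ligase that FBXL5 belongs to and of many others, rose (log2 fold changes 0.76 and 0.43), with CUL1 not called without control replicate 3 or CD replicate 2 (FDR 0.0562 and 0.0532, edgeR). PCBP1, which delivers iron to ferritin, fell from 544 ± 31.7 CPM to 424 ± 15.9 CPM (by -0.36 ± 0.11 SE in log2, FDR 0.0204, edgeR), a call made in 12 of 16 alternative settings.

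Of 16 tested genes of heme and iron-sulfur clusters, 7 rose, 4 fell and 5 were not called (68.8% called, median log2 fold change -0.094). The 3 highest were ISCU, the scaffold on which iron-sulfur clusters are built (log2 fold change 1.46 ± 0.14 SE), FECH, which inserts iron into heme (1.26 ± 0.17 SE), and ALAS1, the first enzyme of heme synthesis (1.18 ± 0.10 SE). The mean of ALAS1 went from 117 ± 3.10 to 264 ± 12.9 CPM (FDR 1.40e-05, edgeR). The heme oxygenases, which free iron from heme, rose as well, HMOX2 by 1.10 (FDR 5.72e-05, edgeR) and HMOX1 by 0.46 (FDR 0.010, edgeR) on the log2 scale. HMOX2 was called throughout, whereas the HMOX1 call was lost without control replicate 2 or 3 or CD replicate 2 (FDR 0.0543, 0.0508 and 0.0565, edgeR). Among the genes that fell were CIAO1 (-0.53) and SLC25A28, a mitochondrial iron importer (-0.53, not called without control replicate 3, FDR 0.0925, edgeR).

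The cystine and glutathione genes import or make the building blocks of glutathione, which GPX4 uses, make glutathione or break it down. Of 7 tested, 4 fell, none rose and 3 were not called, with a median log2 fold change of -0.77 beside 0.057 for all genes tested. Called were 57.1% of this list, beside 47.7% of all genes tested (24.8% higher and 22.9% lower). CHAC1, which degrades glutathione, fell from 23.2 ± 8.58 CPM to 9.03 ± 0.481 CPM (by -1.37 ± 0.25 SE in log2, FDR 0.00133, edgeR). CTH, which makes cysteine, fell by 1.33 on the log2 scale, and SLC3A2, the heavy chain of the cystine transporter, by 1.10. GCLC, the catalytic subunit of the enzyme that limits glutathione synthesis, was lower in CD (30.3 ± 4.07 CPM) than in control (51.7 ± 2.57 CPM, log2 fold change -0.77 ± 0.14 SE, FDR 0.00119, edgeR). All 4 passed the test under each of the 16 alternatives. SLC7A11, the light chain of the cystine transporter, was low (71 counts over the control and 54 over the CD libraries) and was not called (log2 fold change -0.41 ± 0.38 SE, FDR 0.39, edgeR), although it was called lower without CD replicate 1 (log2 fold change -0.99, FDR 0.0294, edgeR), at the lower end of a range that reached -0.13 with 1 library left out.

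GPX4 could not be followed, but genes needed to make it could. Of 9 genes of selenoprotein synthesis, all tested, 3 rose, 2 fell and 4 were not called (median log2 fold change 0.092). TRIT1, which attaches the mevalonate-derived isopentenyl group to the selenocysteine tRNA, was not called (log2 fold change -0.35 ± 0.18 SE, FDR 0.12, edgeR), although its 3 CD libraries were below the control libraries. EEFSEC, the elongation factor for selenocysteine, fell from 51.7 ± 3.23 CPM to 19.4 ± 2.47 CPM (by -1.42 ± 0.14 SE in log2, FDR 3.11e-05, edgeR), and SEPHS1, a relative of selenophosphate synthetase, fell by 0.65. PSTK, SECISBP2 and SCLY rose, with log2 fold changes of 0.77, 0.63 and 0.38, and PSTK was not called without control replicate 3 (FDR 0.0688, edgeR). SCLY was called in 9 of 16 alternative settings.

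Among 12 other selenoproteins and peroxidases tested, 4 rose, 3 fell and 5 were not called (median log2 fold change 0.15). GPX1, the cytosolic relative of GPX4 that reduces hydrogen peroxide, fell from 1789 ± 27.7 CPM to 1149 ± 186 CPM (by -0.64 ± 0.14 SE in log2, FDR 0.00407, edgeR). SELENOO fell by 0.53, and PRDX6, which is no selenoprotein but also reduces phospholipid peroxides, by 0.34, the latter with a call in only 7 of 16 alternative settings. SELENOS, a selenoprotein of the endoplasmic reticulum, went up most in this list (log2 fold change 1.27 ± 0.16 SE, FDR 1.38e-04, edgeR), followed by TXNRD3 (0.80) and SELENOM (0.55, or 0.35 without CD replicate 3). Calls in this list were thus made in both directions, for 58.3% of its genes beside 47.7% of all genes tested (24.8% higher and 22.9% lower).

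Of 6 tested genes of other quinone and radical-trapping defences, 1 rose, 3 fell and 2 were not called (median log2 fold change -0.46). PDSS1, which builds the isoprenoid tail of coenzyme Q, fell from 20.3 ± 0.657 CPM to 9.04 ± 1.25 CPM (by -1.17 ± 0.17 SE in log2, FDR 2.97e-04, edgeR). DHODH, read from a row with the symbol PYRD, reduces coenzyme Q in mitochondria and fell by 1.35 on the log2 scale, while MBOAT2, a phospholipid acyltransferase, fell by 0.52. These 3 falls passed the test under each of the 16 alternatives. TXN, or thioredoxin, rose (log2 fold change 0.64, FDR 0.0204, edgeR). Its log2 fold change was 0.31 without CD replicate 3, and the call was lost without control replicate 1, 2 or 3 (FDR 0.0651, 0.0617 and 0.0767, edgeR). NQO1, another quinone reductase, had 0 counts in control and 3 in CD, and GCH1, which makes the radical trap tetrahydrobiopterin, had 1 and 8 counts, so that neither was tested.

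Of 19 tested genes of polyunsaturated phospholipid synthesis and oxidation, the list nearest in role to ACSL4, 6 rose, 2 fell and 11 were not called (42.1% called, median log2 fold change 0.081). PTGS2, or cyclooxygenase-2, which is often used as a marker in ferroptosis studies, had 4 counts over the control and 786 over the CD libraries. With 1 or 2 counts in each control library, it passed the count filter only through the CD libraries. Its fitted log2 fold change of 7.46 therefore rests on a control level near the floor, and no FDR is given for it. ALOX15B, a lipoxygenase, rose from 0.878 ± 0.326 CPM to 4.15 ± 0.970 CPM (by 2.22 ± 0.32 SE in log2, FDR 2.98e-04, edgeR), and FAR1, which makes fatty alcohols for ether lipids, rose by 1.21. LPCAT3, which inserts arachidonic acid into phospholipids after ACSL4 has activated it, fell from 289 ± 45.2 CPM to 190 ± 7.30 CPM (by -0.60 ± 0.13 SE in log2, FDR 0.00362, edgeR). POR, an electron donor in lipid peroxidation, fell by 0.38, a call lost without control replicate 3 (FDR 0.13, edgeR). Among the relatives of ACSL4, ACSL1 rose (log2 fold change 0.56, FDR 0.0334, edgeR, called in 10 of 16 alternative settings), while ACSL3 and ACSL5 were not called (log2 fold changes -0.28 and -0.24). Without CD replicate 3 both were called lower (FDR 0.0248 and 0.0198, edgeR), and ACSL3 also without CD replicate 1 (FDR 0.0378, edgeR) and, with all libraries, by DESeq2 and by limma on the normalized signal.

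**Figure D4:**
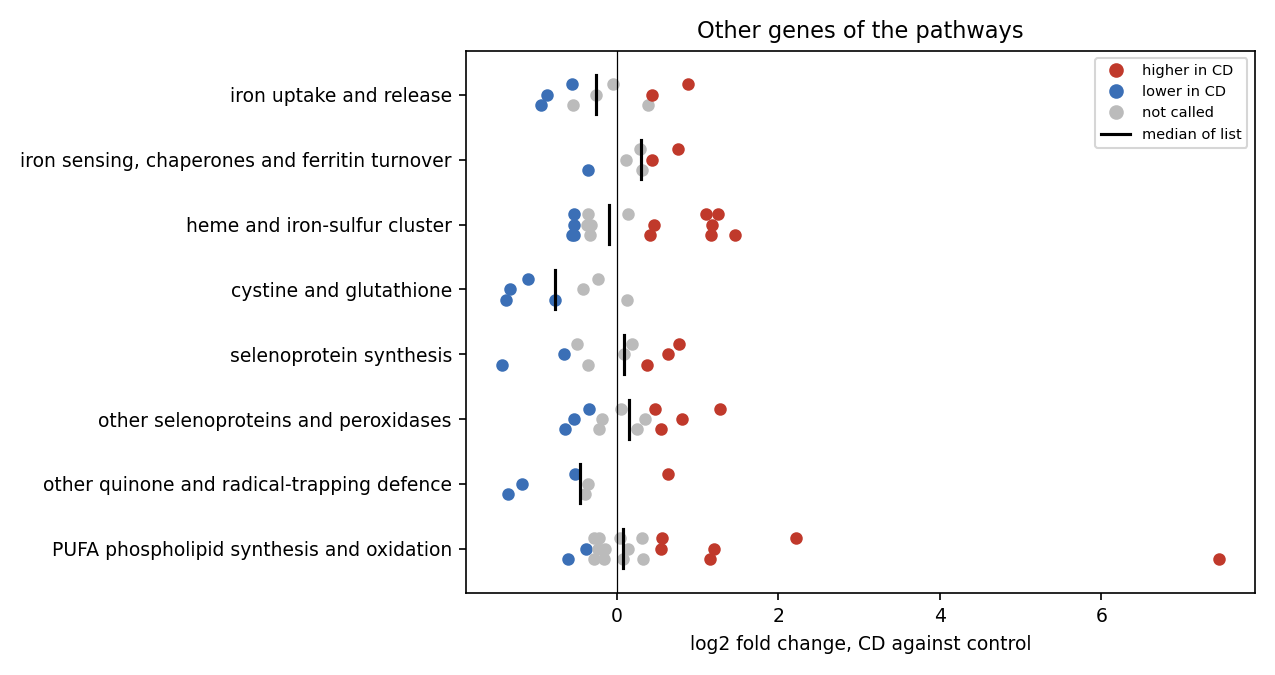
Log2 fold change of CD against control (x axis) of each tested gene in the 8 pathway lists (rows, PUFA standing for polyunsaturated fatty acid), coloured red for genes called higher, blue for genes called lower and grey for genes not called, with the median of each list as a black line. The 4 called cystine and glutathione genes all lie on the lower side, and most other lists hold called genes on both sides.

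**Figure D5:**
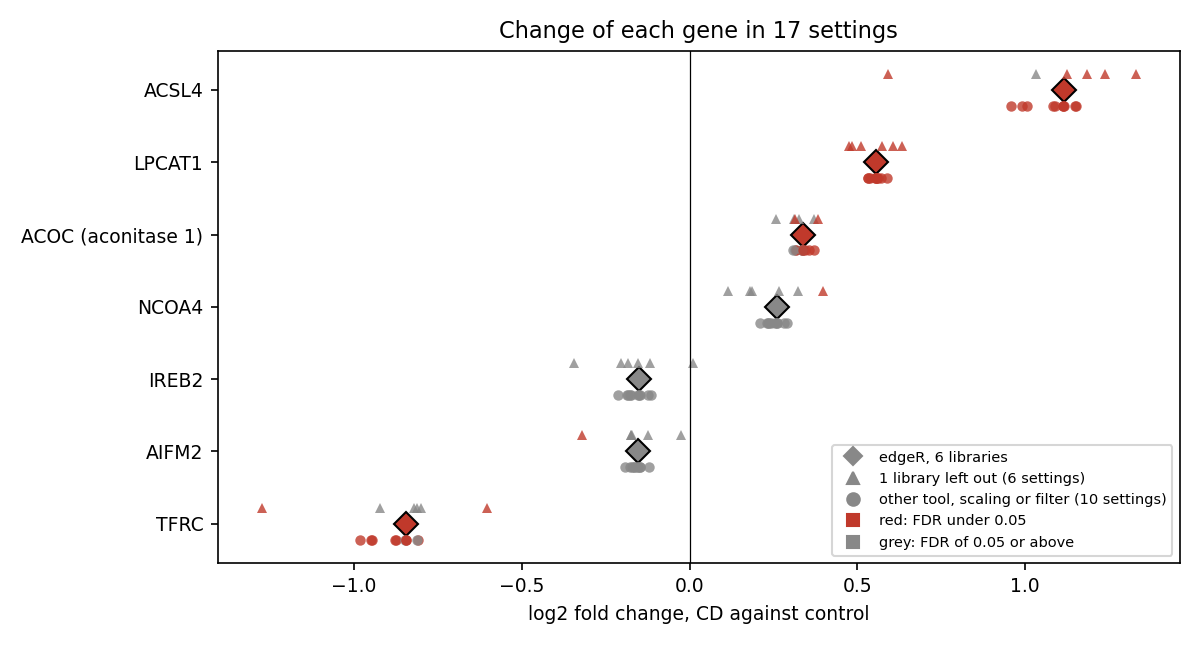
Log2 fold change (x axis) of each gene in 17 settings, with diamonds for the edgeR test on all 6 libraries, triangles for tests that left out 1 library and circles for other tools, scalings and filters, in red where the FDR was under 0.05. LPCAT1 is red throughout, and the largest shifts of TFRC, ACSL4, IREB2, NCOA4 and AIFM2 belong to tests without CD replicate 1 or 3.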

How the data were processed

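The authors trimmed the reads with fastp 0.20.1, aligned them to the mink assembly NNQGG.v01 with STAR 2.7.2a and compared expression with DESeq2 1.30.1. The counting program and its strand setting are not given in the sources used here, so counts of overlapping genes and near-identical copies are uncertain. The authors deposited raw counts per gene and, per library, a normalized signal equal to the count divided by a size factor. In the latter, 100% of 147156 values gave whole reads within 0.01 reads, equal to the counts in row order. The identifiers beside them followed another order, so they served only for alternatives and were paired by row. The edgeR test on the recovered reads, added after seeing the data, called 3016 higher and 2784 lower genes, as many as the test on the deposited counts.

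Counts were tested with edgeR 4.0.16 in R 4.3.3 (filterByExpr with a minimum count of 10 and a total of 15, TMM, robust glmQLFit, glmQLFTest, condition as the only term) over all 6 libraries, with Benjamini-Hochberg adjustment over 12148 genes. The table ends with 4 totals of reads outside genes (29.3% to 47.2% of reads per library), which were left out. The standard error is the log2 fold change divided by the square root of F, with a median of 0.18 over the tested genes. The procedure was tested on simulated data. Ratios of counts within libraries were compared by exact permutation. Alternatives were DESeq2 1.42.0, limma-voom (limma 3.58.1), 3 other scalings, other filters, a block for the replicate number, the omission of single libraries, and limma on log2 of the normalized signal with a pseudocount of 1.

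The genes, the pathway lists and the marker lists were chosen with earlier results of these data known. All genes of the list are named, and in each pathway list up to 3 called genes with the highest and 3 with the lowest change, besides genes tied to the iron regulatory proteins. ACSL1, ACSL3, ACSL5, GCLC, HMOX1, HMOX2, FBXL5, HERC2, TRIT1, SLC7A11, HAMP, CP, NQO1 and GCH1 were added for their roles after values were seen. For 9 genes, the row was found by its description. Gene coordinates and sequences are not given, since the annotation at hand is of another assembly. Some genes of the lists are not reported here by name.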

Additional observations from a re-analysis of the deposited data

How the results depend on the processing

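Of the 6 genes found by symbol, 2 were called higher and 1 lower with edgeR. With 1 library left out in turn, the number called higher ranged from 1 to 3 and the number called lower from 0 to 2. No gene was called lower with total counts as the only scaling or without the filter on low counts (0 each), since TFRC then had an FDR of 0.0709 and 0.12, and DESeq2 called it at 0.00501. IREB2 changed sign only without CD replicate 3 (log2 fold change 0.0099, with a lowest value of -0.34 without CD replicate 1). The ACSL4 to LPCAT1 difference of 0.43 ranged from -0.050 (without CD replicate 1) to 0.73 with 1 library left out, and the ACOC to IREB2 difference of 0.52 from 0.38 to 0.68. Of the pathway genes, 16 to 34 were called lower with 1 library left out, the highest number without CD replicate 3, beside 22 with all libraries, and 17 to 26 were called higher, beside 25. Over all genes tested, 17.8% to 29.2% were called lower and 18% to 29.3% higher under these omissions, both highest without CD replicate 3. The cause of these shifts was not tested.

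Pairing by replicate number was not seen. The deviations of control and CD libraries with the same number from their group means had correlations across genes of -0.020, -0.40 and -0.20 for replicates 1, 2 and 3. Between libraries with different numbers, the correlations ran from -0.023 to 0.31. Deviations within a group are tied to each other, so these values cannot show whether the libraries were prepared in pairs. With the replicate number as a block, the 6 genes had 2 higher and 1 lower call, the pathway lists 21 and 20, and the ACOC row had an FDR of 0.0889 (edgeR). In a paired exact permutation test, the differences in the ratios were 0.52 (p = 0.25, the smallest possible for this paired test) and 0.43 (p = 0.75).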
